A study of Bubalus bubalis with 6 samples.

Results

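This account covers 87 of the 273 miRNAs measured in cell-free saliva of Murrah buffaloes (Bubalus bubalis), namely every miRNA listed as bta-miR- with a number of 1500 or more, whatever its letter or arm suffix. They are called the high-numbered miRNAs below. The rule reads the name alone, and no measured value entered it. Saliva freed of cells came from 3 healthy wild-type animals, each sampled in estrus, when the female is receptive around ovulation, and in diestrus, the luteal phase. That gave 3 libraries per phase, and the replicate number is the animal number. No treatment was named in the labels, and the animals' ages were not given in the sources used here. The names carry the prefix bta (Bos taurus), so the levels are those of buffalo reads counted under cattle miRNA names.

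miRNAs are short RNAs that guide Argonaute proteins to target transcripts, and in body fluids they circulate in vesicles or bound to protein. miRBase assigns numbers in the order in which sequences are registered. Low numbers therefore hold mostly miRNAs shared among mammals, whereas many high numbers were registered from deep sequencing of a single species, and the targets of most of these are little studied. A few members, such as miR-4286 and miR-3613, also carry human names. The miR-2284 and miR-2285 group is a large family of ruminants. The nearest names below the limit were miR-1468, with 15 reads over all libraries, and the 2 arms of miR-1343, with 53 reads for the 5p arm and 24 for the 3p arm. The nearest above it were miR-1584-5p, with 122 reads, and miR-1777a and miR-1777b, with 33 and 34.

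The libraries held between 3015 and 27036 recovered reads, 64277 in all, and each estrus library was deeper than each diestrus library, so depth and phase cannot be told apart. A read here is the unit counted by the authors, recovered from their normalized counts. Intervals and floors cover counting error only. Among the lists of cell markers, 6 of 7 epithelial miRNAs were listed and summed to 0.163% to 1.08% of reads in 5 libraries and to 9.25% in estrus replicate 3. For leukocytes 5 of 6 were listed, at 0.575% to 2.29% of reads at estrus and 1.77% to 3.68% at diestrus. Of 3 erythrocyte miRNAs only miR-486 was listed, with at most 8 reads in a library. The epithelial miRNAs miR-200b and miR-375 were at 0 reads in all 3 diestrus libraries and in estrus replicate 2, while miR-205 had reads in every library. Of the leukocyte miRNAs, miR-223 and miR-142-5p had reads in every library. The leukocyte miRNAs miR-150, miR-146a and miR-155 had reads in estrus replicate 3 only, at 16, 5 and 20. Estrus replicate 3 is the only library whose label carries the word Repl, which the labels do not explain, and the joint share is also given without it.

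The high-numbered miRNAs held a large and uneven part of the reads. Together they had 21213 reads. For animal 1 their joint share of the library was 59.7% at estrus, with a 95% Wilson interval of 58.9 to 60.4, and 7.20% at diestrus (6.33 to 8.18). The corresponding shares for animal 2 were 73.6% (72.6 to 74.7) and 35.5% (34.2 to 36.7). In animal 3 they came to 12.01% (11.6 to 12.4) and 14.7% (13.8 to 15.7). The phases overlapped, since estrus replicate 3 lay below both diestrus replicates 2 and 3. Estrus averaged 48.4% ± 32.3 and diestrus 19.1% ± 14.6 (SD, 3 libraries each). The difference of 29.3 percentage points was smaller than the SD at estrus. Within animals the share was higher at estrus by 52.5 percentage points in animal 1 and by 38.2 in animal 2, and the difference was -2.71 in animal 3. Animal 2 had the highest share in each phase. Without estrus replicate 3 the difference was 47.5 percentage points, and without estrus replicate 2 it was 16.7. With all libraries but without miR-11980, the leading member, it was 19.2.

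A share depends on what else is in the library. At diestrus most other reads were those of miR-1246, a low-numbered miRNA, which stood at 1.20%, 20.0% and 1.80% of reads at estrus and 76.2%, 55.0% and 73.6% at diestrus in replicates 1 to 3. Counted over all reads except those of miR-1246, the joint share was 60.4%, 92.1% and 12.2% at estrus and 30.3%, 78.8% and 55.7% at diestrus. On this denominator the means were 54.9% ± 40.2 and 54.9% ± 24.3 (SD, n = 3 each), and the difference all but vanished, at -0.0055 percentage points. This value rested on single libraries. It was 21.3 percentage points without estrus replicate 3 (76.2% against 54.9%), 11.9 without diestrus replicate 2 and 0.388 without diestrus replicate 3. It was -2.75 without estrus replicate 1, -18.6 without estrus replicate 2 and -12.3 without diestrus replicate 1, all chosen after seeing the data. The order within animals stayed: higher at estrus in animal 1 by 30.1 and in animal 2 by 13.3 percentage points, and -43.5 in animal 3. On the deposited scale the summed normalized counts of the 87 miRNAs were 3968, 8983 and 584 at estrus and 618, 3205 and 1279 at diestrus, also overlapping.

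**Figure D1:**
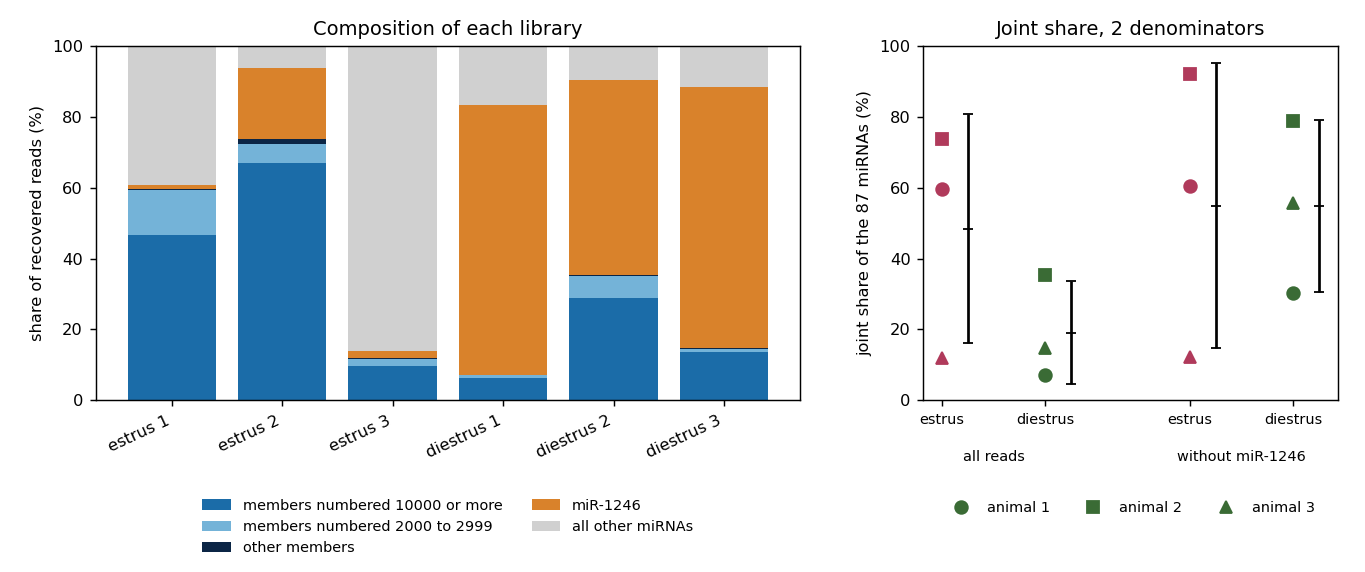
Left, share of recovered reads (%) in each of the 6 libraries, stacked by miRNA group, where members are the 87 high-numbered miRNAs. Right, their joint share of all reads and of reads other than miR-1246, with 1 symbol per animal (estrus and diestrus on the x axis) and mean ± SD beside them; with miR-1246 left out both means are 54.9%.

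The estrus libraries differed in what else filled them. Other miRNAs, miR-1246 not counted, held 86.2% of estrus replicate 3 and 39.1% of estrus replicate 1, against 6.34% of estrus replicate 2. In the diestrus libraries they held 16.6%, 9.57% and 11.7%. The low joint share of estrus replicate 3 went with the highest epithelial marker sum (9.25%), and the part of epithelial RNA in it was not tested.

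By number, most of these reads fell in the highest block. The 24 miRNAs numbered 10000 or more had 17515 reads, the 44 numbered from 2000 to below 3000 had 3416, the 5 below 2000 had 196, and the 14 from 3000 to below 10000 had 86. The block of 10000 or more held 46.6%, 67.1% and 9.83% of the estrus libraries and 6.24%, 28.8% and 13.6% of the diestrus libraries. The block that starts at 2000 held 12.7%, 5.26% and 1.85% at estrus and 0.862%, 6.20% and 1.01% at diestrus. Here diestrus replicate 2 stood above estrus replicates 2 and 3. Both blocks overlapped between phases, and with miR-1246 left out of the denominator their differences of 24.96 and 3.91 percentage points became -0.16 and 0.0285. With all reads counted, they were 12.01 without estrus replicate 2 and 40.6 without estrus replicate 3 for the highest block, and 0.866 without estrus replicate 1 and 6.28 without estrus replicate 3 for the block that starts at 2000. The block that starts at 3000, which includes miR-4286 and miR-3613, stayed between 0.0663% and 0.159% of reads in every library.

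Few members carried the set. Of the 87, 7 had a mean share of at least 1%, 60 had fewer than 10 reads over all libraries, and 22 were seen in a single library. Only 11 had a read in all 6 libraries, against 43 of all 273 miRNAs. The number with at least 1 read was 57, 38 and 67 at estrus and 14, 43 and 28 at diestrus. For the other miRNAs of the table it was 115, 78 and 161 at estrus and 70, 65 and 87 at diestrus. Depth moves such counts. At the 3015 reads of the smallest library the expected numbers of high-numbered miRNAs were 28.2, 29.5 and 27.0 at estrus and 14, 35.1 and 22.4 at diestrus. The estrus libraries were then close to each other, and diestrus replicate 2 exceeded each of them. Diestrus replicates 2 and 3 had similar depth (5548 and 5055 reads), yet the former had 43 high-numbered and 65 other miRNAs and the latter 28 and 87. With reads only at estrus there were 31 members, holding 149 reads in all and at most 20 each, and 6 with reads only at diestrus held 14 reads and at most 3 each. Given these counts and the deeper estrus libraries, a restriction to 1 phase was not detectable at this depth. The matching 1-phase counts over all 273 miRNAs were not made, so these numbers say nothing particular of the set.

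miR-11980 was the leading member. It held 9.46%, 34.8% and 7.41% of reads at estrus and 3.12%, 9.53% and 8.82% at diestrus in replicates 1 to 3. Estrus replicate 2 stood apart, and the remaining 5 libraries lay within 3.12% to 9.53%, so the phases overlapped. It ranked first among the high-numbered miRNAs in 5 libraries and second in estrus replicate 1. Estrus averaged 17.2% ± 15.3 and diestrus 7.16% ± 3.52 (SD, n = 3 per phase), which gave p = 0.5 (exact permutation test, two-sided; adjusted over 58 miRNAs, 0.763). The difference of 10.1 percentage points was 1.28 without estrus replicate 2 and -2.32 with miR-1246 left out of the denominator. With 20 assignments of the libraries this test has a smallest p of 0.1, and that of a sign-flip over the animals is 0.25.

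miR-12034 took first place in estrus replicate 1, where its 4937 reads made 29.3% of the library. It held 7.60% and 0.566% in estrus replicates 2 and 3 and 0.299%, 2.29% and 0.0989% at diestrus. Its share was higher at estrus in 3 of 3 animals, but diestrus replicate 2 exceeded estrus replicate 3 and the phases overlapped. The means were 12.5% ± 15.0 and 0.896% ± 1.21 (SD, n = 3 each; exact permutation test, p = 0.2, adjusted 0.725). Without estrus replicate 1 the difference fell from 11.6 to 3.19 percentage points.

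miR-11987 ranked second among the high-numbered miRNAs in 4 libraries. It held 3.34%, 17.7% and 0.817% at estrus and 1.13%, 2.69% and 2.75% at diestrus, again with estrus replicate 2 far above the others. The difference of 5.10 percentage points (exact permutation test, p = 0.5, adjusted 0.763) was -0.11 without that library and 1.74 with miR-1246 left out of the denominator. miR-2340 held 8.92%, 2.33% and 0.104% at estrus and 0.431%, 1.15% and 0.356% at diestrus. Estrus replicate 3 was the lowest of all 6 for miR-2340, and estrus replicate 1 the highest. Its exact permutation p was 0.4 (adjusted 0.725), and without estrus replicate 1 its difference fell from 3.14 to 0.568 percentage points. miR-11972 held 2.12%, 3.79% and 0.499% at estrus and 0.0663%, 3.01% and 0.198% at diestrus (exact permutation test, p = 0.5, adjusted 0.763). It was higher at estrus in 3 of 3 animals, and animal 2 was highest in both phases. With miR-1246 left out of the denominator, miR-11972 was lower at estrus in animal 2 (4.74% against 6.68%). The difference of 1.04 percentage points was 0.216 without estrus replicate 2, 2.00 without diestrus replicate 2 and -0.11 with miR-1246 left out of the denominator. The Wilson half-width of these single shares was at most 1.14 percentage points.

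**Figure D2:**
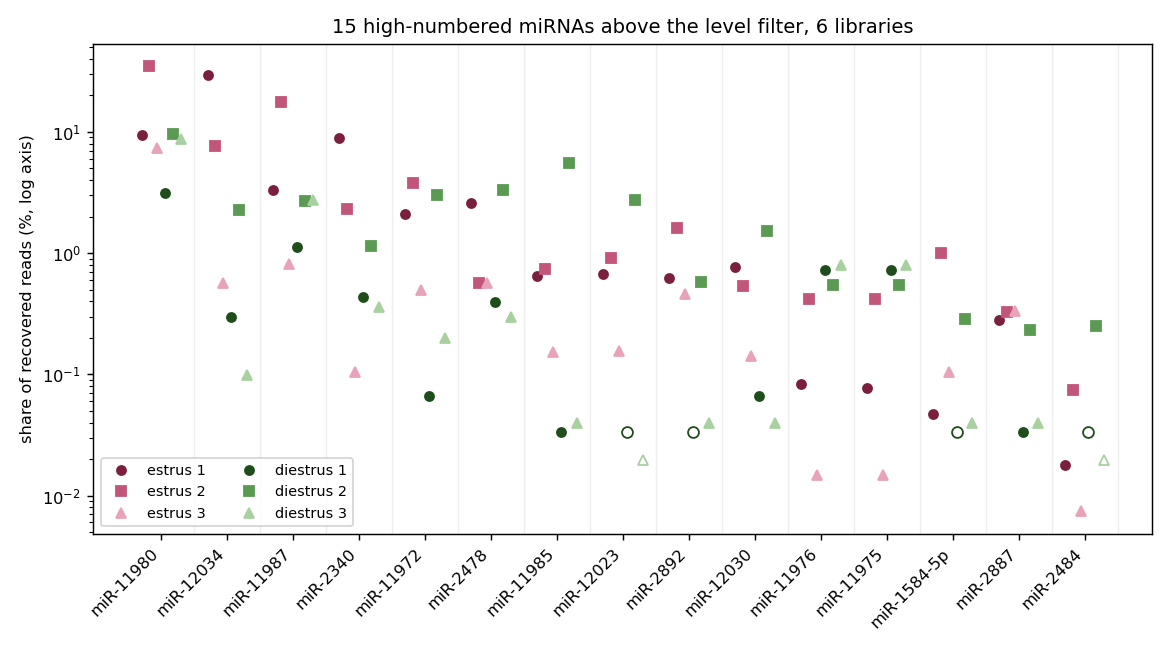
Share of recovered reads (%, log axis) of the 15 high-numbered miRNAs above the level filter, 1 symbol per library. Open symbols mark 0 reads and are drawn at the share of 1 read; miR-11975 and miR-11976 lie lower at estrus than at diestrus, and the squares, animal 2, are high for miR-11985 and miR-12023 at diestrus.

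Several members set diestrus replicate 2 apart from the other diestrus libraries. miR-11985 had 308 reads there (5.55% of the library) and 1 and 2 reads in diestrus replicates 1 and 3, beside 109, 50 and 41 reads at estrus. miR-12023 had 153 reads in diestrus replicate 2 and 0 in the other two, and 114, 61 and 42 at estrus. A count of 0 allows up to 0.0995% of diestrus replicate 1 and 0.0593% of diestrus replicate 3, against 2.76% measured in diestrus replicate 2 and 0.155% in estrus replicate 3, the lowest estrus value.

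The same arrangement was seen in further members. miR-12030 had 84 reads in diestrus replicate 2 and 2 each in diestrus replicates 1 and 3, with 129, 36 and 38 at estrus. miR-2478 had 185 reads there against 12 and 15, with 441, 38 and 154 at estrus. miR-2484, with 24 reads in all, had 14 there and 0 in the other diestrus libraries. Its mean of 5.56 normalized counts rests on 22.8 there, and without diestrus replicate 2 it would not pass the filter of 5. The level of miR-2484 there is therefore no added support. For miR-11985, miR-12023, miR-12030, miR-2478 and miR-2484 the mean share was lower at estrus while the mean log2 value was higher, and diestrus replicate 2 supplied most of the diestrus mean share. Their mean normalized counts were also lower at estrus (46.9 against 169 for miR-11985). Their log2 differences fitted on shares were above 0, from 0.129 to 2.68 (limma). The sign of the difference in these 5 thus turned with the log step, not with the choice between shares and normalized counts. miR-2467-3p, below the filter and chosen after its values were seen, had 15 of its 16 reads in diestrus replicate 2.

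miR-2892 had 106, 108 and 125 estrus reads and 0, 32 and 2 diestrus reads. Its shares were 0.628%, 1.60% and 0.462% at estrus and at most 0.577% at diestrus, and they were higher at estrus in 3 of 3 animals but overlapped through diestrus replicate 2. miR-1584-5p had 8, 68 and 28 reads against 0, 16 and 2. Its shares were 0.0474%, 1.01% and 0.104% at estrus and 0%, 0.288% and 0.0396% at diestrus, also higher at estrus in 3 of 3 animals and overlapping. With miR-1246 left out of the denominator, miR-1584-5p was lower at estrus in animal 3 (0.105% against 0.150%). On that denominator miR-2892 stayed higher in 3 of 3. On the deposited scale 17.2% of the 58 miRNAs tested were higher at estrus in 3 of 3 animals.

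miR-2887 held nearly the same share of reads in the 3 estrus libraries. It held 0.279%, 0.326% and 0.333% of reads there (47, 22 and 90 reads) and 0.0332%, 0.234% and 0.0396% at diestrus (1, 13 and 2 reads). All 3 estrus shares lay above all 3 diestrus shares. Of the 58 miRNAs above the level filter 1.72% had shares that did not overlap and were higher at estrus, and miR-2887 was that 1 miRNA. Its means were 0.312% ± 0.0296 and 0.102% ± 0.114 (SD, n = 3 each, exact permutation test, p = 0.1, the smallest possible, adjusted 0.725). Shares that do not overlap fix this p at 0.1, so it adds no support. The test was planned only for the leading members by mean share, and miR-2887 is not among them. On the deposited scale its phases overlapped, with 18.5, 39.8 and 16.2 normalized counts at estrus and 2.85, 21.2 and 3.44 at diestrus. Without miR-1246 in the denominator they overlapped too, at 0.282% to 0.408% and 0.139% to 0.520%.

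miR-11975 and miR-11976 showed the opposite arrangement. miR-11975 had 13, 28 and 4 estrus reads, and 22, 30 and 40 diestrus reads in shallower libraries. Its shares were 0.0770%, 0.415% and 0.0148% at estrus and 0.730%, 0.541% and 0.791% at diestrus, with means of 0.169% ± 0.215 and 0.687% ± 0.131 (SD, n = 3 each; exact permutation test, p = 0.1, the smallest possible, adjusted 0.725). The diestrus shares all lay above the estrus shares, which fixes that p at 0.1, so it adds no support. The test was planned only for the leading members by mean share, not for miR-11975. Its shares were lower at estrus in 3 of 3 animals. Shares that did not overlap and were lower at estrus were found in 8.62% of the 58 miRNAs, 5 in number, of which miR-11975 and miR-11976 are 2. With miR-1246 left out of the denominator the shares of miR-11975 still did not overlap, at 0.0151% to 0.519% and 1.20% to 3.07%. On the deposited scale they did, through estrus replicate 2 at 50.6 normalized counts and diestrus replicate 2 at 48.9.

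The counts of miR-11975 and miR-11976 were nearly the same in every library. miR-11976 had 14, 28 and 4 estrus reads, and its diestrus reads were 22, 30 and 40, so that the pair differed by 1 read in estrus replicate 1 and by none elsewhere. Over all libraries miR-11975 had 137 of the 275 reads, or 49.8% (exact binomial 95% interval 43.8 to 55.9). miR-1777a and miR-1777b behaved alike. Both had 18, 7 and 7 reads at estrus, none in diestrus replicates 1 and 3, and 1 and 2 in diestrus replicate 2. miR-1777a had 33 of the 67 reads, or 49.3% (36.8 to 61.8).

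Among the 89 miRNAs with at least 30 reads in all, 16 of them high-numbered, these were the only 2 of 3916 pairs whose reads differed by at most 1 in every library. The counting rule is not given in the sources used here, and whether the same reads were entered under both names of a pair was not tested. Each pair may thus carry a single measurement, and the 2 members of a pair should not be read as independent of each other in any count given here.

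**Figure D3:**
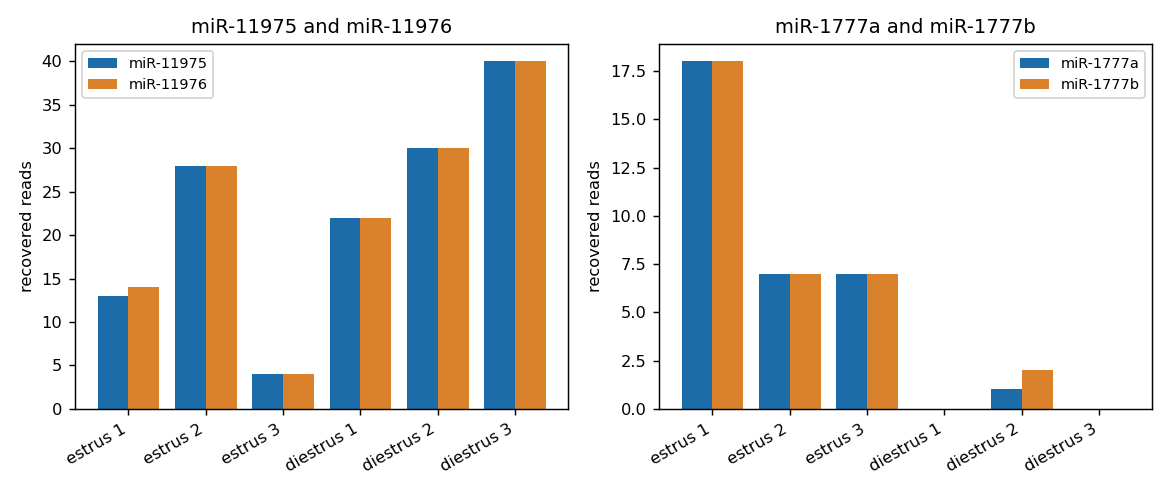
Recovered reads in each library for miR-11975 and miR-11976 (left) and miR-1777a and miR-1777b (right), as bars from 0. The paired bars differ by at most 1 read in each library, and no read of the miR-1777 pair was found in diestrus replicates 1 and 3.

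Other members that share a number were scarce. The 4 listed forms of miR-2284 had 24 reads, of which 10, 1 and 12 were at estrus and 0, 0 and 1 at diestrus. miR-2284x had 14 of these and miR-2284ab 6, while miR-2284b and miR-2284y had 1 read each in estrus replicates 1 and 3. The 6 forms of miR-2285 had 30 reads, 29 of them in estrus replicate 3, where miR-2285aj-5p had 18. miR-2285bk and miR-2285bm had 3 reads each there, miR-2285bl and miR-2285co 2 each, and miR-2285cp had 1 there and 1 in diestrus replicate 2. The miR-3613 forms had 7 reads and the arms of miR-6119 had 4, all of the latter in estrus replicate 3; both sets are under the 10 reads of the naming rule and were named after their values were seen. These families lay below the level filter and were tested between phases only in the limma fit without it. There 0 of the 87 high-numbered miRNAs had an adjusted p below 0.05.

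The make-up of the set differed between libraries even where miR-1246 plays no part. As a share of the high-numbered reads, miR-11980 was 15.9%, 47.3% and 61.7% at estrus and 43.3%, 26.9% and 59.9% at diestrus. miR-12034 was 49.0%, 10.3% and 4.71% at estrus and 4.15%, 6.45% and 0.672% at diestrus. miR-11975 was 0.129%, 0.563% and 0.123% at estrus and 10.1%, 1.52% and 5.38% at diestrus, and here too the phases did not overlap. The 3 leading members of each library made up 79.9%, 81.7% and 73.2% of the set at estrus and 69.1%, 51.9% and 84.0% at diestrus.

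The order of the 15 members above the filter was compared between libraries by Spearman's rho, as a description, since the points share library and depth. Diestrus replicates 1 and 3 were most alike, at 0.95. The 3 estrus libraries lay at 0.70 to 0.76 with each other. Diestrus replicate 2 lay at 0.61 to 0.71 with the estrus libraries and at 0.31 to 0.34 with the other diestrus libraries. Across the 43 other miRNAs above the filter, diestrus replicate 2 lay at 0.76 to 0.80 with the other diestrus libraries, and at 0.88, 0.44 and 0.03 with estrus replicates 2, 1 and 3. Estrus replicate 2 also differed between the sets of miRNAs. It lay at 0.34 to 0.61 with the diestrus libraries across the high-numbered miRNAs and at 0.76 to 0.88 across the others. The difference between the sets was not tested.

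**Figure D4:**
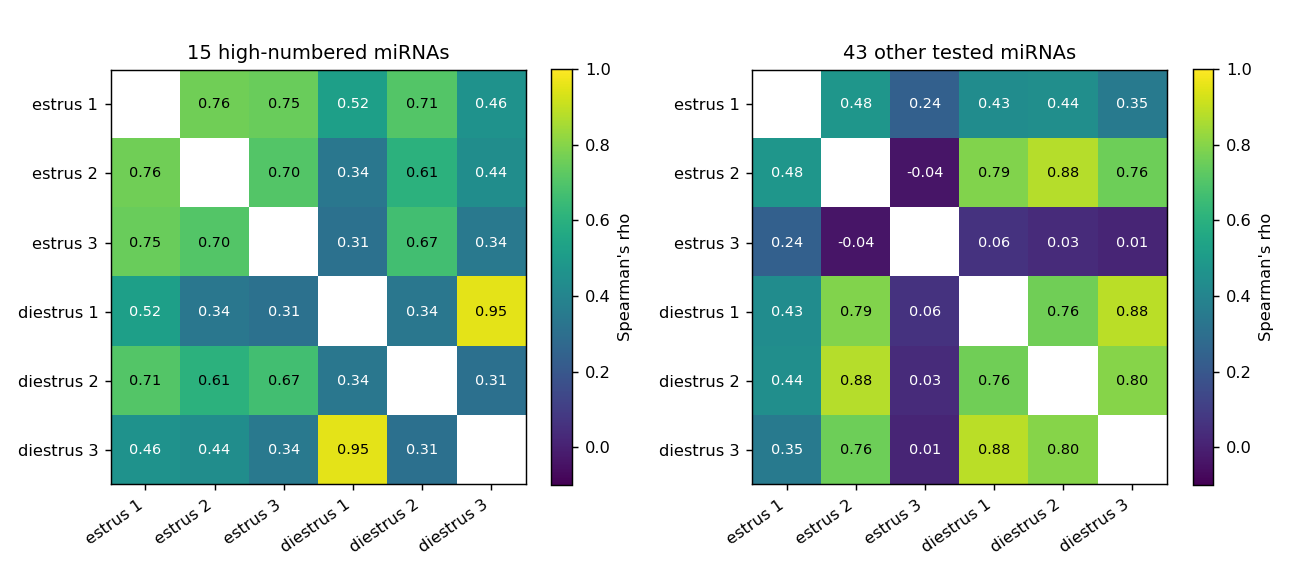
Spearman's rho of recovered reads between libraries (rows and columns, colour scale at the right), across 15 high-numbered miRNAs (left) and 43 other miRNAs above the filter (right). Estrus libraries lie at 0.70 to 0.76 with each other on the left and at -0.04 to 0.48 on the right.

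Levels were then tested with limma on log2(normalized count + 1), for the 58 miRNAs with a mean of at least 5 normalized counts, and 15 high-numbered miRNAs were among them. The other 72 had a mean of at most 4.14 and 448 reads together, 2.11% of the reads of the set. After Benjamini-Hochberg adjustment over the 58, 0 of the 15 reached the threshold of 0.05 in limma, as did 0% of all 58. Their smallest adjusted p (limma) was 0.258. Before adjustment 4 of the 15 lay under 0.05, where 13.8% of all 58 did. Of these miR-12034 and miR-2892 were higher at estrus, against 6.9% of all 58, and miR-11975 and miR-11976 lower, also against 6.9%. The reads of the latter pair are nearly equal, so these 4 may not be independent. edgeR and DESeq2 on the recovered reads also gave 0 at the adjusted threshold, and 1 each at the unadjusted one, miR-12034, of 10 (edgeR) and 8 (DESeq2) among all 58.

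miR-12034 was 3.31 ± 1.47 (standard error) higher at estrus on the log2(value + 1) scale (limma, adjusted p = 0.258). Its normalized counts were 1946, 927 and 27.5 at estrus and 25.6, 207 and 8.59 at diestrus. miR-2892 was 3.24 ± 1.45 higher (limma, adjusted p = 0.258), on 41.8, 195 and 22.5 against 0, 52.1 and 3.44 normalized counts. Over 20 settings its difference stayed positive, from 1.79 to 5.88, with adjusted p from 0.122 to 0.922 (limma, edgeR and DESeq2), and it was 1.92 without diestrus replicate 1. miR-11975 differed by -2.89 ± 1.45 (limma, adjusted p = 0.357), on 5.12, 50.6 and 0.720 against 62.7, 48.9 and 68.7. For miR-11976 the difference was -2.86. With the animals as a replicate block the unadjusted count was 2, miR-12034 and miR-2892, of 6 among all 58, and the adjusted p of miR-11975 became 0.428 (limma). Over 19 settings, the reported one included, the adjusted p of miR-11975 ranged from 0.0899 to 0.901 (limma, edgeR and DESeq2), and its difference stayed negative, from -4.22 to -1.70. Over 20 settings the difference of miR-12034 stayed positive, from 2.01 to 5.16, with adjusted p from 0.122 to 0.901.

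The remaining 11 lay between 0.0986 (miR-2478) and 2.48 (miR-12023), with standard errors of 1.45 to 1.87, and had adjusted p-values of 0.476 or more (limma). The value of miR-12023 includes 2 diestrus libraries at 0 reads. It was 4.63 with a pseudocount of 0.1, 0.72 with a pseudocount of 10 and 7.24 for CPM, and 1.16 to 5.14 without 1 library, lowest without diestrus replicate 1 or 3 and highest without diestrus replicate 2. Among the 15, 13 were above 0 and 2 below, and the median was 0.90; over all 58, 72.4% were above 0 and the median was also 0.90. The medians of the 15 and of all 58 parted in 5 of the 6 fits without 1 library, at 0.11 and 1.07 without estrus replicate 2, 0.73 and 1.09 without estrus replicate 1, 1.96 and 0.72 without estrus replicate 3, 0.28 and 0.63 without diestrus replicate 1, and 2.46 and 1.46 without diestrus replicate 2. Without diestrus replicate 3 they stayed close, at 0.81 and 0.85. On the deposited scale 5 of the 15 were higher at estrus in 3 of 3 animals, against 17.2% of all 58, and 0 were lower in 3 of 3, against 10.3%. The 5 were miR-12034, miR-2892, miR-11972, miR-1584-5p and miR-2887. Deposited values of the phases did not overlap for 0 of the 15 in either direction, where 1.72% of all 58 were wholly higher and 5.17% wholly lower at estrus. The split by sign depends on the scaling and says nothing particular of the set. Column totals without miR-1246 moved the 15 by -1.33 to -0.44, to a median of -0.32 where all 58 had -0.19, and the split became 6 above 0 and 9 below. Median centring moved each of the 58 by the same -0.82, and the split became 8 and 7.

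**Figure D5:**
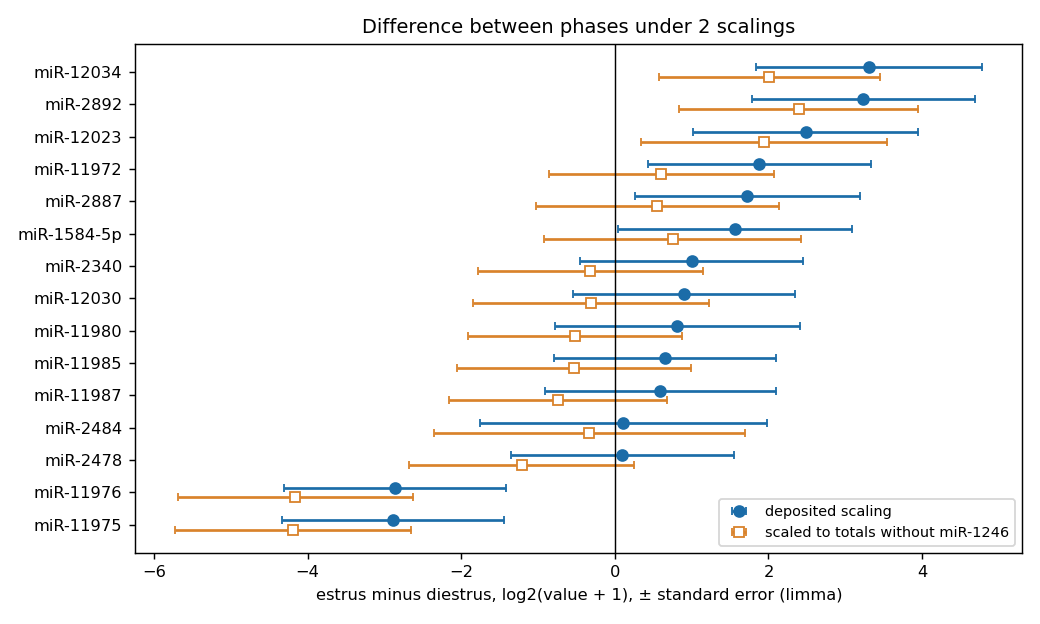
Difference between phases (x axis, log2(value + 1) at estrus less that at diestrus, ± standard error from limma) for 15 high-numbered miRNAs, with the deposited scaling (filled) and with column totals without miR-1246 (open). The open symbols lie lower for each miRNA, with shifts of -1.33 to -0.44.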

How the data were processed

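Cell-free saliva of 3 buffaloes at estrus and diestrus was sequenced with a QIAseq kit that adds unique molecular indices, per the labels' protocols. The submitters' processing notes name cutadapt, FastQC, UMI-tools, Bowtie, SAMtools, featureCounts and DESeq2; versions, roles, reference and counting rule are not given in the sources used here. The authors deposited 1 table of normalized counts, a signal scaled by 1 size factor per library. Each column was a whole multiple of 1 step (100% of values within 0.001 of a whole number), so reads were recovered by division; 1 read was worth 0.18 to 2.85.

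Members and lists were chosen with earlier results of these data known. Values were compared with limma 3.58.1 (R 4.3.3; trend, pseudocount 1, mean of at least 5), where each test had 232 degrees of freedom because limma found no spread of variances beyond the trend. Exact permutation tests of shares used scipy 1.17.1, adjusted over 58 miRNAs. Alternatives were other scalings, pseudocounts and filters, a replicate block, edgeR 4.0.16 and DESeq2 1.42.0 on recovered reads, and each sample left out. Scripts were tested on simulated data. The naming rule took the 12 members with the largest mean share, those above the filter, and same-number or near-identical sets with at least 10 reads; miR-4286, miR-3613, miR-6119 and miR-2467-3p fall outside it. The replicate number is the animal, which pairs the samples; same-animal deviations correlated at -0.0046, 0.37 and 0.30. Sequences and genomic positions were not analysed here.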

Additional observations from a re-analysis of the deposited data

How the results depend on the processing

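The count of high-numbered miRNAs at an adjusted p-value below 0.05 was 0 in each alternative run. Over all tested miRNAs that count was 6 without estrus replicate 2, 1 each for quantile normalization, column totals without miR-1246 and shares on the mean column total, and 0 otherwise. Their count at an unadjusted p-value below 0.05, 4 as reported, of 8 among all 58, came to 0 of 2 for a pseudocount of 10, 1 of 2 for a minimum mean of 50, 1 of 10 for edgeR and 1 of 8 for DESeq2. It was 4 of 16 with no filter on low values, where all 273 miRNAs were tested and 87 of them were high-numbered. It was 5 of 9 for a pseudocount of 0.1 and 3 of 7 for CPM, each with miR-12023, and CPM without miR-11975 and miR-11976. It was 2 of 5, miR-11975 and miR-11976, after each of median centring, quantile normalization and column totals without miR-1246. It was also 2, miR-12034 and miR-2892, of 6 for shares on the mean column total, 7 for limma without a trend and 6 for the replicate block. Over the fits that each left out 1 sample it ranged from 0 to 4. It was 0 of 0, 2 of 11 and 2 of 3 without estrus replicates 1, 2 and 3, and 0 of 3, 4 of 6 and 0 of 2 without diestrus replicates 1, 2 and 3.

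With miR-1246 out of the denominator, the difference in joint share all but vanished, at -0.0055 percentage points, as did that for numbers of 10000 or more, at -0.16. Differences turned negative for the block from 3000 (-0.13), miR-11980 (-2.32) and miR-11972 (-0.11). They fell from 3.91 to 0.0285 for the block from 2000 and from 5.10 to 1.74 for miR-11987. Without 1 sample this joint share, an alternative chosen after seeing the data, gave -18.6 to 21.3. Leaving out 1 sample gave 16.7 to 47.5 for the joint share, 12.01 to 40.6 for 10000 or more, 0.866 to 6.28 for the block from 2000, 0.0572 to 0.581 for that from 1500 and 0.034 to 0.0691 for that from 3000. The same ranges were 1.28 to 15.0 for miR-11980, 3.19 to 17.5 for miR-12034, -0.11 to 8.33 for miR-11987, 0.568 to 4.98 for miR-2340 and 0.216 to 2.00 for miR-11972. The difference in members detected, 25.7, was 13.3 for at least 3 reads, 5.67 for at least 10 reads and 4.38 at equal depth, and 18.5 to 33.7 without 1 sample.

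Log2 differences reversed as follows. Median centring gave -0.0074 for miR-11980, -0.17 for miR-11985, -0.23 for miR-11987, -0.72 for miR-2478 and -0.71 for miR-2484. Quantile normalization gave -0.35 for miR-11985, -0.93 for miR-11987, -0.31 for miR-2340, -1.04 for miR-2478 and -0.58 for miR-2484. Totals without miR-1246 gave -0.52 for miR-11980, -0.53 for miR-11985, -0.74 for miR-11987, -0.32 for miR-12030, -0.32 for miR-2340, -1.21 for miR-2478 and -0.33 for miR-2484. edgeR gave -1.57 for miR-11985, -0.35 for miR-12023, -0.0893 for miR-2478 and -1.21 for miR-2484. DESeq2 gave -1.79 for miR-11985, -0.55 for miR-12023, -0.22 for miR-12030, -0.41 for miR-2478 and -1.15 for miR-2484. A pseudocount of 10 gave -0.19 for miR-2484. Without 1 sample the ranges were -0.24 to 1.54 for miR-11980, -0.55 to 2.97 for miR-11985, -0.91 to 1.96 for miR-11987, -0.0211 to 2.46 for miR-12030, -0.28 to 3.03 for miR-2340, -0.56 to 1.20 for miR-2478 and -0.74 to 1.63 for miR-2484. Median centring moved every value by -0.82, which accounts for its reversals; the cause of the others was not tested. The other 239 log2 differences changed neither sign nor side of the threshold. In the smallest library, at 3015 reads, a count of 0 still allows up to 0.0995% of reads.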
